A study of Mus musculus with 9 samples.

Results

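Slc6a14 and 9 amino acid transporters of the liver were followed across the 3 groups of a diabetic mouse study: Slc7a1, Slc7a2, Slc7a5, Slc3a1, Slc3a2, Slc38a2, Slc38a3, Slc38a4 and Slc43a1. The members are all probe sets that the platform annotation gives to these 10 genes alone, 10 of 18193 named genes with 20 of 45037 probe sets, of which 2 belong to Slc6a14 and 18 to the other genes. Slc6a14 was selected from its change on these same arrays: its probe set 1420504_at is 1 of the 5 called in biomineralized insulin against no treatment. All its values are therefore given as a description, without a test, in each of the 3 comparisons, which share arrays. The other 9 genes were chosen as known amino acid carriers and were tested.

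Liver RNA was taken at 8 weeks of age from KKAy mice, which become obese and diabetic, fed chow with 34% fat, and run on 9 Affymetrix one-colour arrays with 3 per group. BI mice were injected intraperitoneally with 100 µL of insulin at 40 µg/mL in culture medium, 11% of it in the biomineralized form. Insulin mice received the same volume and total concentration as plain insulin. Untreated mice carry the treatment label none, while the protocol describes control mice given medium, so whether they were injected is not known. Every group was thus KKAy, and no lean or non-diabetic strain was compared. Groups held 8 to 12 mice, and no label tells if an array stands for a single mouse or pooled ones, so the spread behind each p-value may be technical. BI replicate 2 carries a growth protocol written for rats, with no chow given. It was kept as labelled, and the Slc6a14 and Slc38a2 differences of BI from the other groups are given without it as well.

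Signals are log2 values per probe set with a floor at 0, and array medians lay between 6.11 and 6.30. The liver label fitted the markers: all 9 measured hepatocyte markers, such as albumin, had means above the median probe set. Their summed linear signal was 302400 to 339900 in BI livers, 305300 to 333700 in insulin livers and 298000 to 351500 in untreated livers. In whole liver, fewer cells of a type and less RNA per cell cannot be told apart.

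Amino acid carriers of the plasma membrane set what a hepatocyte can take up for protein synthesis, glucose production and urea synthesis. SLC6 and SLC38 carriers move amino acids together with sodium and can concentrate them. SLC7 members either work alone on basic amino acids or pair with a heavy chain of the SLC3 family to exchange amino acids. SLC43 members are carriers that need no sodium. Insulin and the supply of amino acids are both known to regulate sodium-coupled uptake of neutral amino acids, and in starved cells the transcription factor ATF4 switches on several carrier genes.

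The sequences before 2 start sites are shown because Slc6a14 is the gene the results turn on and Slc3a1 is the member whose arrays of a group spread most for their level. Each is the 250 bases before the start site, 5′ to 3′ in the direction of the gene, from RefSeq on GRCm38.p6. Capitals mark the letters TATAAA on either strand. For Slc6a14 the window is chrX:21714650-21714899 on the plus strand, and for Slc3a1 it is chr17:85028097-85028346 on the plus strand.
Slc6a14: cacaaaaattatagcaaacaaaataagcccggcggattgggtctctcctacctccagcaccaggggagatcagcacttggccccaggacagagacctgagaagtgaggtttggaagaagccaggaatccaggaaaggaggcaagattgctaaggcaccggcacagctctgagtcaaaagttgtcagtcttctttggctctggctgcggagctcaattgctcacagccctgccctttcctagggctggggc
Slc3a1: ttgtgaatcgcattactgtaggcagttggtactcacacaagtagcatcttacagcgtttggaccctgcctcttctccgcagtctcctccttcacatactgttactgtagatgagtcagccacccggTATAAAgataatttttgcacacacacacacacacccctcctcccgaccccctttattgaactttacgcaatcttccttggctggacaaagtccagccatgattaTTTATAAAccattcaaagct
TATAAA occurred in the Slc3a1 window 124 bases and 18 bases before the start, and on the opposite strand 20 bases before it, where it overlaps the match at 18. No match was found in the Slc6a14 window. Over all 32851 windows of this length in the table, 12.4% held TATAAA, and 4 of the 10 windows of the 7 member genes listed there did. The core of the amino acid response element, searched as TGATGNAA on both strands, was in 3.45% of all windows and in 0 of the 10. Bases past the start site or farther before it were not searched, so the 0 does not show that these genes lack the element. These matches describe letters only.

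Slc6a14, which couples the uptake of neutral and basic amino acids to sodium and chloride and is known from lung, colon and mammary epithelium, gave different pictures on its 2 probe sets. On 1420504_at the BI arrays read 4.10, 4.39 and 3.95, the insulin arrays 0, 1.13 and 0, and the untreated arrays 0, 0 and 0.037 (log2 signal). All 3 BI arrays stood above all 6 others, and the lowest BI array was above the highest insulin array. The group means were 4.15 ± 0.22 in BI livers, 0.38 ± 0.65 in insulin livers and 0.012 ± 0.021 in untreated livers (SD, n = 3 each). Of the 9 arrays 4 were listed at 0, so no fold is given. The BI mean stood 4.13 above the untreated mean and 3.77 above the insulin mean (log2), or 4.01 and 3.65 without BI replicate 2. These are distances to groups at or near the floor of the scale, which the floor sets, and not measured fold changes. Every one of these 9 values lay below the lowest array median of 6.11, and no background measure was used, so no statement is made on whether the BI signal exceeded background.

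The other probe set, 1420503_at, which the annotation ties to the same mRNA record, did not separate the groups. Its BI arrays were at 4.35, 4.61 and 6.05, its insulin arrays at 5.91, 4.89 and 2.48, and its untreated arrays at 4.70, 5.45 and 6.46. All 3 groups overlapped, with means of 5.00 ± 0.92 in BI livers, 4.43 ± 1.76 in insulin livers and 5.54 ± 0.89 in untreated livers (SD, n = 3 each). The mean differences were -0.53 in BI against untreated livers and 0.58 in BI against insulin livers (log2). Single arrays moved both, and only the second changed sign. The first lay between -1.06 without BI replicate 3 and -0.071 without untreated replicate 3. It was -0.21 without BI replicate 1 and -0.34 without BI replicate 2. The second lay between -0.39 without insulin replicate 3 and 1.32 without insulin replicate 1, and was 0.052 without BI replicate 3, 0.905 without BI replicate 1 and 0.78 without BI replicate 2. Only untreated replicate 3 lay above the highest array median. Over the 9 arrays the mean of 1420504_at was 1.51, at the 0.8th percentile of all probe sets, and that of 1420503_at was 4.99, at the 35.4th percentile.

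**Figure D1:**
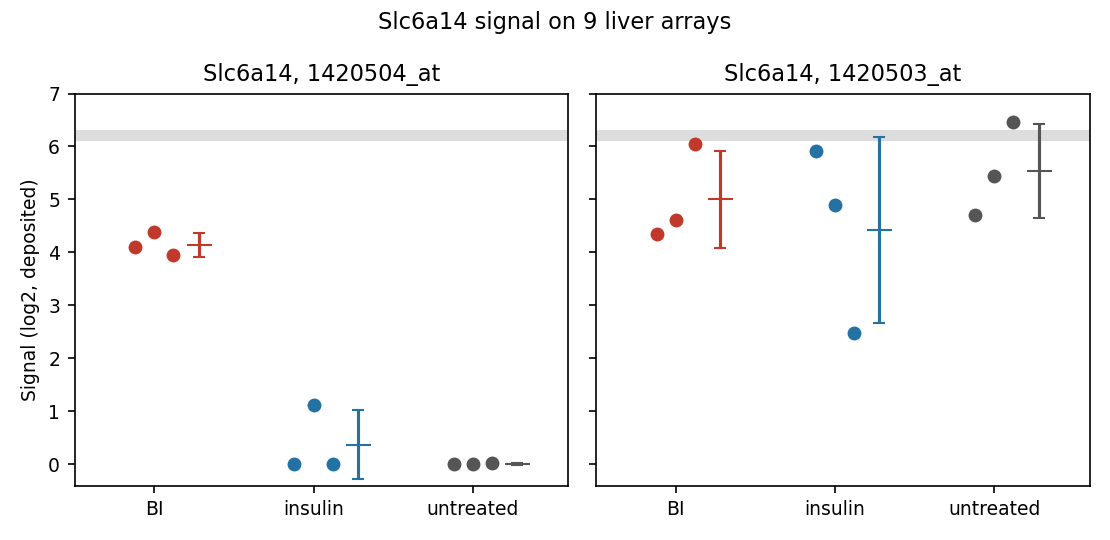
Signal of the 2 Slc6a14 probe sets (log2, vertical axis) on each array of the BI, insulin and untreated groups, with bars for the mean ± SD of 3 arrays and a grey band for the range of the array medians. On 1420504_at the BI arrays lie between 3.95 and 4.39 and the others at or below 1.13, while on 1420503_at the groups overlap.

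Dim probe sets varied widely between arrays of a group, which sets the scale for these values. Among 994 probe sets with a mean below 2, the median SD within groups was 1.11, and among 12582 with a mean of 4 to 6 it was 0.956. The SD within groups of 1420504_at was 0.398, but 4 of its 9 values are cut off at 0 and it was chosen by a test that favours a small SD, so nothing is read from it against other dim probe sets. At 1.25, that of 1420503_at lay inside the range that held the middle 80% of probe sets of its level, 0.45 to 1.49. A pattern as extreme as that of 1420504_at, counted after its values were seen as at most 0.5 on all 3 arrays of one group and at least 3.5 on all 3 of another, was held by 1 probe set for BI over untreated livers, Slc6a14 itself. The opposite pattern, BI at the floor and untreated above it, was also held by 1 probe set. Over the other 4 ordered pairs of groups the counts were 0 for BI over insulin, 1 for insulin over BI, 0 for insulin over untreated and 2 for untreated over insulin.

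**Figure D2:**
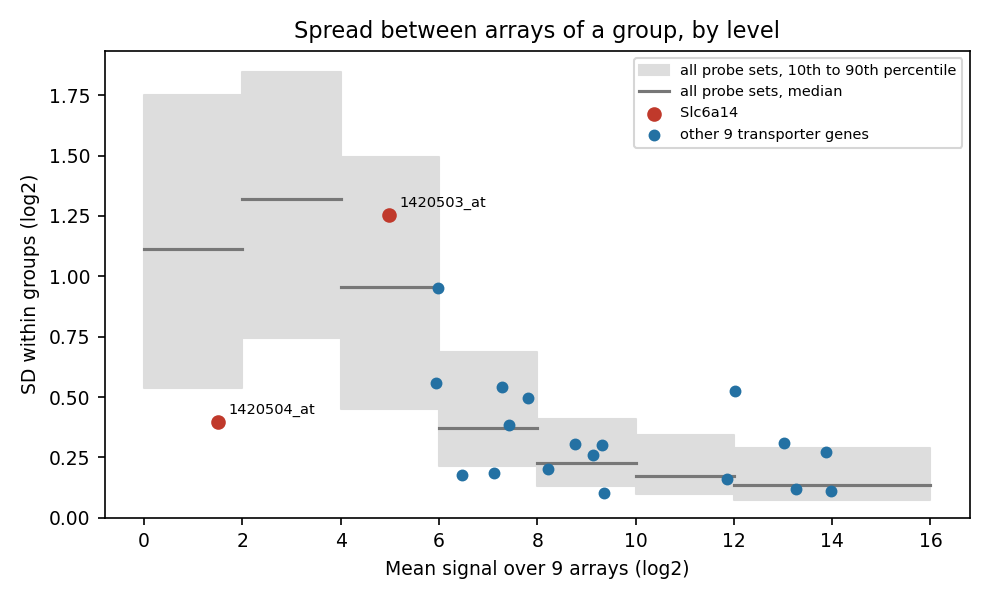
SD within groups (log2, vertical axis, 6 residual degrees of freedom) against the mean over 9 arrays (log2, horizontal axis). Grey boxes span the middle 80% of all probe sets in a level class and lines their median, red points are the Slc6a14 probe sets and blue points those of the other 9 genes, of which Slc3a1 (0.526 at a level of 12.0) and Slc7a2 1436555_at (0.310 at a level of 13.03) lie above their box.

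Markers of intestinal and airway epithelium and of cholangiocytes were set beside Slc6a14. Of 12 intestinal and airway markers, 4 had means above the median probe set. The summed linear signal of all 12 was 2118 to 3567 in BI livers, 2293 to 2958 in insulin livers and 2042 to 3341 in untreated livers, so the groups overlapped. That of 6 cholangiocyte markers, of which 2 had means above the median probe set, was 241 to 312 in BI livers, 325 to 359 in insulin livers and 311 to 524 in untreated livers, so the BI arrays lay below the insulin arrays and met the untreated ones at the edge. None of these markers was at 0 on any array, and their part in the Slc6a14 values was not tested.

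The genes most like each probe set were named by Pearson's r over the 9 arrays, as a description. Closest to 1420504_at among 34944 probe sets were those of Foxp2, a forkhead factor (r = 0.965), Atp6v1e1, a subunit of the vacuolar proton pump (r = 0.953), Cyb5a, the microsomal cytochrome b5 (r = 0.944), 4930447M23Rik (r = 0.937) and Pdia3, a disulfide isomerase of the endoplasmic reticulum (r = 0.935). Among the 19335 at or above the median level, Id2, an inhibitor of helix-loop-helix factors, took the place of 4930447M23Rik (r = 0.917). The bright Cyb5a read 15.33 to 15.43 in BI livers, 15.19 to 15.26 in insulin livers and 15.15 to 15.23 in untreated livers. The BI arrays lay above all others by a small margin, with means of 15.4, 15.2 and 15.2 in BI, insulin and untreated livers. As Cyb5a was picked for its likeness to a probe set high in BI alone, this order follows from the choice. The r values are the highest of many candidates on 9 arrays, so nothing is read from their size. Closest to 1420503_at were Dclre1a, a DNA repair nuclease (r = 0.958), Efhd1 (r = 0.958), the sialyltransferase gene St6galnac3 (r = 0.948), Lipg, endothelial lipase (r = 0.948), and 2600006K01Rik (r = 0.945). At or above the median level, Rassf3 (r = 0.935), Foxo4 (r = 0.927) and Mid1ip1, an activator of fatty acid synthesis (r = 0.927), followed Dclre1a and Lipg. The lists for the 2 probe sets of Slc6a14 shared no gene.

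Of the 18 probe sets of the other 9 genes, 16 had a mean at or above the median of all probe sets (6.04), at percentiles of up to 99. The exceptions were 2 of the 3 probe sets of Slc7a1, at 5.97 and 5.93. Signals of different probe sets do not rank transcripts against each other. The limma test called 0 of the 18 in each of the 3 comparisons, with adjusted p of 0.999 to 1 over the 54 tests. Over all probe sets it called 0 (0%) in insulin against untreated, 5 (0.0111%) in BI against untreated, the contrast that selected Slc6a14, and 0 (0%) in BI against insulin livers. An unadjusted p under 0.05 was likewise reached by 0 of the 18 in each comparison, against 4.47%, 4.48% and 4.04% of all probe sets in the same order.

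**Figure D3:**
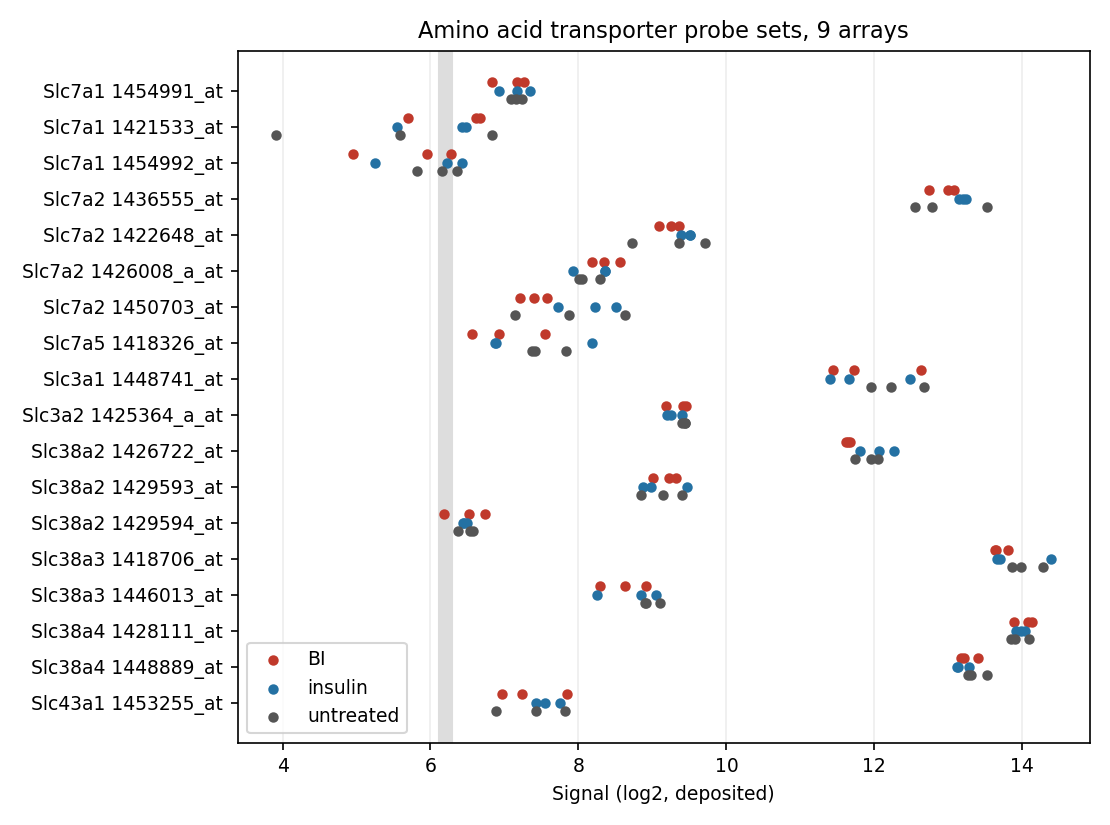
Signal (log2, horizontal axis) of the 18 probe sets of 9 transporter genes on 9 arrays, with BI, insulin and untreated arrays as 3 rows of points within each probe set and a grey band for the range of array medians. Slc38a4 1428111_at spans 13.85 to 14.13 over all arrays, and the dimmest reading is 3.92 for Slc7a1 1421533_at on untreated replicate 1.

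Among the sodium-coupled carriers of neutral amino acids, Slc38a4, a system A carrier typical of liver, read 14.08, 13.88 and 14.13 in BI livers, 14.04, 13.91 and 13.98 in insulin livers and 14.09, 13.85 and 13.91 in untreated livers on 1428111_at. All 9 values lay between 13.85 and 14.13 and the groups overlapped. The difference was 0.03 ± 0.16 in insulin against untreated livers, with a 95% interval of -0.34 to 0.40. In BI against untreated livers it was 0.085 ± 0.158 (log2 ± SE), with an interval of -0.28 to 0.45. Its second probe set, 1448889_at, lay between 13.12 and 13.53 on all arrays. The interval in BI against insulin livers was -0.31 to 0.42 on 1428111_at and -0.29 to 0.46 on 1448889_at.

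Slc38a3, the system N carrier that moves glutamine in and out of hepatocytes, read 13.63, 13.65 and 13.80 in BI livers, 14.39, 13.69 and 13.66 in insulin livers and 14.29, 13.98 and 13.86 in untreated livers on 1418706_at. The BI arrays lay below all untreated arrays, while insulin replicate 1 was the highest of all 9 and the other insulin arrays stood among the BI ones. The difference of BI from untreated livers was -0.35 ± 0.24 (log2 ± SE), with an interval of -0.92 to 0.21 and an unadjusted p of 0.187 from limma. On 1446013_at the BI arrays read 8.29, 8.63 and 8.91, the insulin arrays 9.05, 8.25 and 8.84 and the untreated arrays 9.10, 8.92 and 8.90, so BI and untreated met at their edges. The difference there was -0.36 ± 0.26, an interval of -0.97 to 0.25.

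Slc38a2, a system A carrier known for its induction when amino acids are scarce, had the smallest SD among BI arrays of the 18 probe sets, 0.026, on 1426722_at. There the BI arrays read 11.67, 11.65 and 11.61, the insulin arrays 12.26, 11.81 and 12.07 and the untreated arrays 12.06, 11.74 and 11.96. All 3 BI arrays lay below all 6 others. The difference of BI from insulin livers was -0.40 ± 0.18 (log2 ± SE), with an interval of -0.82 to 0.016, an unadjusted p of 0.0572 and an adjusted p of 1 in limma, the smallest p of the 54 tests. Against untreated livers BI stood at -0.27 ± 0.18, with an interval of -0.69 to 0.15. Without BI replicate 2 these differences were -0.41 and -0.28. The other 2 probe sets of Slc38a2 did not show this order: in BI against insulin livers they stood at 0.07 ± 0.23 on 1429593_at and 0.02 ± 0.19 on 1429594_at, and without BI replicate 2 at 0.16 and -0.11. Against untreated livers they stood at 0.049 ± 0.233 and -0.017 ± 0.187, and without that array at 0.14 and -0.15.

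Among carriers of basic amino acids, Slc7a2, whose liver form takes up arginine at low affinity, was measured by 4 probe sets that spread from 7.81 to 13.03 in mean level. Its 1436555_at read 13.07, 12.74 and 12.99 in BI livers, 13.19, 13.24 and 13.15 in insulin livers and 13.52, 12.55 and 12.78 in untreated livers. BI lay below insulin livers without overlap, while the untreated arrays held both the highest and the lowest reading. Both 1422648_at and 1450703_at gave the same order of BI and insulin arrays. The remaining probe set, 1426008_a_at, overlapped and pointed the other way. BI against insulin livers stood at -0.26 ± 0.26, -0.23 ± 0.26, -0.75 ± 0.39 and 0.15 ± 0.20 on 1436555_at, 1422648_at, 1450703_at and 1426008_a_at (log2 ± SE). The smallest unadjusted p among them was 0.0903, on 1450703_at, whose interval was -1.66 to 0.15. In insulin against untreated livers the 4 differences of Slc7a2 lay between 0.10 ± 0.20 and 0.27 ± 0.39, and in BI against untreated livers between -0.48 ± 0.39 and 0.25 ± 0.20.

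Slc7a1, the general carrier of basic amino acids and one known to be low in adult liver, read 7.17, 6.83 and 7.27 in BI livers, 6.93, 7.17 and 7.34 in insulin livers and 7.23, 7.09 and 7.16 in untreated livers on 1454991_at. The groups overlapped, and the difference of BI from untreated livers was -0.07 ± 0.19, an interval of -0.52 to 0.37. Its probe set 1421533_at had the widest interval of the 18, -0.77 to 2.54 around 0.88 in BI against untreated livers, with untreated readings of 3.92, 6.84 and 5.59. On 1454992_at the same comparison gave -0.38 ± 0.43. BI replicate 2, the lowest reading at 4.96, carried that value, which was 0.002 without it.

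Of the heavy chains that carry exchangers to the membrane, Slc3a2 varied least of the 18 probe sets and Slc3a1 was the least even of the bright ones. Slc3a2, the partner of Slc7a5, read 9.41, 9.46 and 9.18 in BI livers, 9.40, 9.20 and 9.25 in insulin livers and 9.39, 9.43 and 9.44 in untreated livers. Its SD within groups was 0.104, and in BI against untreated livers it stood at -0.07 ± 0.15, an interval of -0.43 to 0.29. The interval in insulin against untreated livers was -0.50 to 0.22.

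Slc3a1, the heavy chain of the cystine and basic amino acid exchanger best known from kidney and gut, read 12.62, 11.73 and 11.44 in BI livers, 11.40, 11.66 and 12.48 in insulin livers and 12.23, 12.67 and 11.95 in untreated livers. Each group held a reading above 12 and 1 or more below it, and the spread within groups (SD 0.526) compares with a median SD of 0.137 for probe sets of level 12 or more. The difference was -0.44 ± 0.41 in insulin against untreated livers and -0.35 ± 0.41 in BI against untreated livers. None of 8 kidney tubule markers had a mean above the median probe set. Their summed linear signal was 287 to 317 in BI livers, 240 to 337 in insulin livers and 122 to 349 in untreated livers. The light chain that pairs with it, Slc7a9, read 4.54, 6.24 and 5.48 in BI livers, 4.94, 5.47 and 5.06 in insulin livers and 5.88, 5.89 and 5.52 in untreated livers.

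Slc7a5, the light chain for large neutral amino acids, read 7.55, 6.92 and 6.56 in BI livers, 6.89, 6.87 and 8.19 in insulin livers and 7.83, 7.37 and 7.41 in untreated livers. The highest reading was insulin replicate 3 and the lowest BI replicate 3, and the groups overlapped. In BI against untreated livers it stood at -0.53 ± 0.42 (log2 ± SE), an interval of -1.51 to 0.45. Slc43a1, a carrier of branched-chain amino acids, read 6.97, 7.24 and 7.85 in BI livers, 7.55, 7.43 and 7.75 in insulin livers and 7.43, 7.81 and 6.89 in untreated livers. Its BI and untreated groups covered nearly the same range, with a difference of -0.03 ± 0.31.

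**Figure D4:**
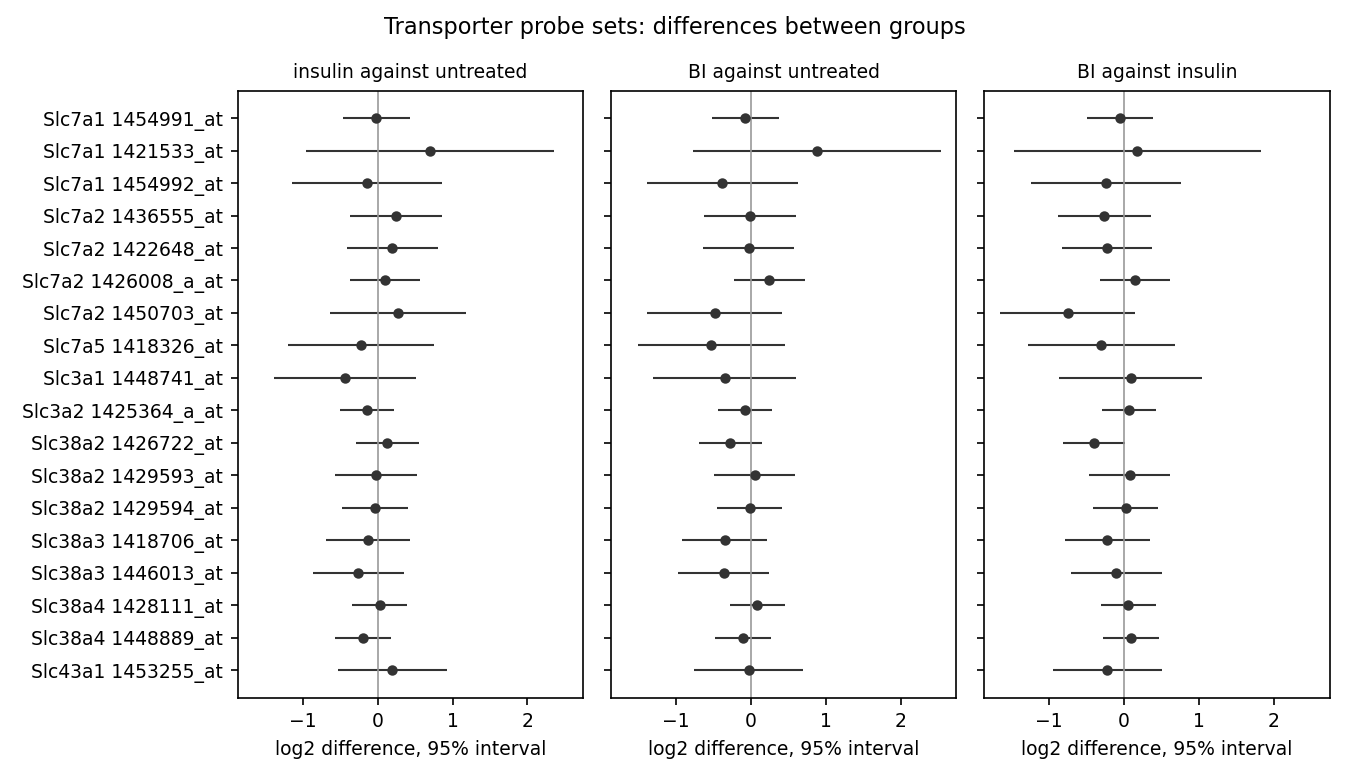
Differences between group means (log2, points) with 95% intervals from limma (bars) for the 18 probe sets in the 3 comparisons. Every interval includes 0, and that of Slc38a2 1426722_at in BI against insulin livers comes closest to leaving it (-0.82 to 0.016).

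Over the 18 probe sets, 8 were higher and 10 lower in insulin against untreated livers, with a median difference of -0.020 beside 0.019 over all probe sets. In BI against untreated livers 4 were higher and 14 lower, with a median of -0.073 beside 0.016, and 51.9% of all probe sets were higher. In BI against insulin livers 8 were higher and 10 lower, with a median of -0.079 beside -0.0083. These are probe sets of 9 genes and so not independent of each other. The groups did not overlap for 0 of 18 in insulin against untreated livers (9.19% of all probe sets), for 2 of 18 in BI against untreated livers (9.21%) and for 4 of 18 in BI against insulin livers (9.6%). Of the last 4, 3 belong to Slc7a2. The summed signal of 8 endothelial markers likewise did not overlap between BI livers, 2514 to 2959, and insulin livers, 3005 to 4080, and was 2467 to 3772 in untreated livers. Its part in these values, and that of the cholangiocyte markers above, was not tested. The median half-width of a 95% interval was 0.585, a 1.5-fold change, so smaller changes could not be told from 0 at this number of arrays for a typical member. Insulin and BI were compared with the same untreated arrays, so the values of these comparisons are not independent.

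The wider amino acid pathway was read from 7 lists with 112 measured genes. The limma test called 0 of the 112 in each comparison, higher or lower, with a smallest adjusted p of 0.844. An unadjusted p under 0.05 was reached by 2 genes in insulin against untreated livers (1.79%, against 4.47% of all probe sets), by 6 in BI against untreated livers (5.36%, against 4.48%) and by 3 in BI against insulin livers (2.68%, against 4.04%). The median difference was -0.037, -0.038 and 0.019 in these comparisons. As no list member passed, the 2 genes of smallest p in each list and comparison are given as values, each a log2 difference ± SE.

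The list of ATF4 targets and the amino acid response had 23 of 24 genes measured. Besides targets it holds Atf4 itself and the kinase genes Eif2ak4 and Eif2ak3. Its medians were -0.08 in insulin against untreated, -0.09 in BI against untreated and 0.05 in BI against insulin livers. Asns, asparagine synthetase, read 10.92, 10.66 and 10.89 in BI livers, 10.98, 10.80 and 11.13 in insulin livers and 11.27, 11.39 and 11.39 in untreated livers. The 6 BI and insulin arrays lay below the 3 untreated ones. Its difference was -0.53 ± 0.17 in BI against untreated livers (log2 ± SE, unadjusted p 0.0142, adjusted p 0.999 in limma). In insulin against untreated livers it was -0.38 ± 0.17 (unadjusted p 0.0528), and Vldlr, a lipoprotein receptor, stood at -0.38 ± 0.27. Ddit4, an inhibitor of mTORC1, stood at -1.10 ± 0.53 in BI against untreated livers. Its readings were 8.75, 8.26 and 8.23 in BI livers and 8.20, 10.21 and 10.13 in untreated livers. The groups overlapped, with untreated replicate 1 below all BI arrays. In BI against insulin livers Aldh18a1, an enzyme of proline synthesis, stood at -0.97 ± 0.45 and the stress factor Atf3 at -0.51 ± 0.33. Aldh18a1 read 7.54, 5.81 and 7.09 in BI livers and 7.52, 7.95 and 7.89 in insulin livers. These groups overlapped, and the lowest reading was BI replicate 2, the array with the rat protocol.

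Genes through which mTORC1 senses amino acids numbered 23 measured of 25, with medians of 0.04 in insulin against untreated, 0.01 in BI against untreated and -0.03 in BI against insulin livers. Rragd, a GTPase that recruits mTORC1 to lysosomes, stood at 0.88 ± 0.30 in BI against untreated livers, with readings of 6.65, 6.42 and 7.02 in BI livers and 5.59, 5.60 and 6.26 in untreated livers that did not overlap (unadjusted p 0.0194, adjusted p 0.999 in limma). Fnip1, a partner of folliculin, stood at 0.27 ± 0.16 there. The arginine sensor Castor1 stood at -0.78 ± 0.30 and Lamtor3 at 0.30 ± 0.17 in insulin against untreated livers. In BI against insulin livers Rragd stood at 0.53 ± 0.30 and Lamtor3 at -0.30 ± 0.17.

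Of the glutamine and glutamate enzymes 8 of 10 were measured, with medians of -0.04 in insulin against untreated, 0.10 in BI against untreated and 0.11 in BI against insulin livers. Got1, the cytosolic aspartate aminotransferase, read 10.63, 10.28 and 10.11 in BI livers, 11.30, 10.64 and 11.02 in insulin livers and 11.22, 11.25 and 10.81 in untreated livers. All BI arrays lay below the other 6. Its difference was -0.76 ± 0.25 in BI against untreated livers (unadjusted p 0.0168, adjusted p 0.999 in limma) and -0.65 ± 0.25 in BI against insulin livers. Glul, glutamine synthetase, stood at 0.21 ± 0.16 in BI against untreated livers and Oat, ornithine aminotransferase, at 0.23 ± 0.22 in BI against insulin livers. In insulin against untreated livers Got2, the mitochondrial aspartate aminotransferase, stood at -0.16 ± 0.14 and Oat at -0.10 ± 0.22.

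All 10 mitochondrial amino acid carriers were measured, with a median of -0.17 in BI against untreated livers. Slc25a44, a carrier of branched-chain amino acids, read 10.10, 10.32 and 10.04 in BI livers and 10.51, 10.63 and 10.90 in untreated livers, without overlap (-0.52 ± 0.23). The glutamate carrier Slc25a22 stood at -0.44 ± 0.20 there. In insulin against untreated livers the median was -0.14, with the ornithine carrier Slc25a2 at -0.56 ± 0.28 and Slc25a44 at -0.37 ± 0.23. In BI against insulin livers it was -0.02, with Slc25a22 at -0.53 ± 0.20 and the aspartate and glutamate carrier Slc25a12 at -0.19 ± 0.20.

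Of the other neutral carriers 24 of 26 were measured, with medians of -0.03 in insulin against untreated, -0.07 in BI against untreated and -0.0028 in BI against insulin livers. Slc6a20b stood at 1.81 ± 0.70 in BI against untreated livers and 1.40 ± 0.70 in insulin against untreated livers, from readings of at most 6.40. Slc1a5, the exchanger of glutamine and other neutral amino acids, stood at -1.21 ± 0.58 in BI against untreated and -1.11 ± 0.58 in BI against insulin livers. Its BI arrays read 4.22, 5.74 and 6.70, of which the last overlapped both other groups. Slc7a10 stood at -1.22 ± 0.79 in insulin against untreated livers and Slc6a15 at 1.57 ± 0.91 in BI against insulin livers. Their readings reached at most 5.81 and 5.07, below the array medians. Of 12 other basic and acidic carriers, all measured, medians were -0.04 in insulin against untreated, -0.24 in BI against untreated and -0.12 in BI against insulin livers. The glutamate carrier Slc1a3 stood at -1.83 ± 0.79 in insulin against untreated and -2.01 ± 0.79 in BI against untreated livers. Readings of Slc1a3 reached at most 5.10, below the array medians. Slc7a9 stood at -0.61 ± 0.41 in insulin against untreated livers. Slc7a3, another carrier of basic amino acids, stood at -0.38 ± 0.20 in BI against untreated and -0.55 ± 0.20 in BI against insulin livers. Readings of Slc7a3 lay between 5.25 and 6.31. Slc7a4 stood at -0.59 ± 0.30 in BI against insulin livers.

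From the family of Slc6a14 itself, 13 other members, mostly carriers of neurotransmitters, formed a list, and 12 were measured. Family members placed among the neutral carriers above, such as Slc6a15 and Slc6a20b, were not in it. Medians of this list were -0.09 in insulin against untreated, 0.06 in BI against untreated and 0.16 in BI against insulin livers. Slc6a16 had the smallest p of all 112 genes, with readings of 3.13, 5.46 and 6.04 in BI livers, 5.51, 5.65 and 5.59 in insulin livers and 2.67, 2.88 and 2.72 in untreated livers. The 6 BI and insulin arrays lay above the untreated ones, at signals below the array median. It stood at 2.82 ± 0.66 in insulin against untreated livers (unadjusted p 0.00326, adjusted p 0.844 in limma) and at 2.12 ± 0.66 in BI against untreated livers. The serotonin carrier Slc6a4 stood at -1.14 ± 0.63 in insulin against untreated and 1.25 ± 0.63 in BI against insulin livers. Slc6a5, a glycine carrier, stood at 1.78 ± 0.82 in BI against untreated livers and Slc6a3, the dopamine carrier, at -0.71 ± 0.53 in BI against insulin livers. Readings reached at most 5.26 for Slc6a4, 5.82 for Slc6a5 and 6.20 for Slc6a3.

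**Figure D5:**
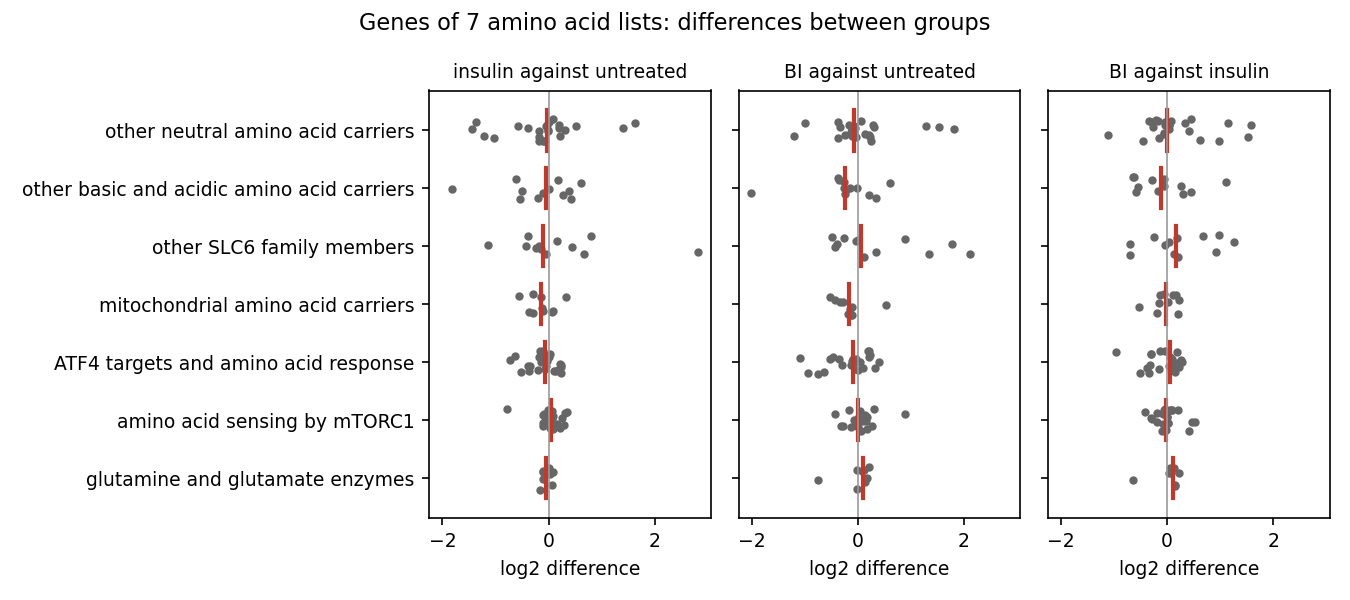
Differences between group means (log2, horizontal axis) of the genes of 7 amino acid lists in the 3 comparisons, 1 point per gene and a red bar at each list's median. Medians lie between -0.24 and 0.16, and the widest scatter is among the lists of plasma membrane carriers, such as the other SLC6 members with Slc6a16 at 2.82 in insulin against untreated livers.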

How the data were processed

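The authors deposited log2 signals per probe set for 9 arrays, with the software that summarized the probes not stated. The linear signal had a 2% trimmed mean of 500.004 on every array and the lowest log2 value was 0, so the deposited values were taken as already scaled per array and used unchanged. Of 45101 probe sets, 64 controls were left out. Names came from the platform annotation of 2016, updated by gene ID through RefSeq: 34945 probe sets had 1 symbol, 932 several and 9160 none, and 34741 matched a gene ID.

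All 9 arrays entered one limma fit (version 3.58.1, R 4.3.3, 6 residual degrees of freedom, no variance trend) with group as the only factor. Tests were two-sided, adjusted by Benjamini-Hochberg over 45037 probe sets, with a threshold of 0.05. Each p given with the values is from this fit. In the lists, the probe set of highest mean stood for its gene. The members, lists, tests and alternatives were chosen with earlier results of these data known. From each list the members past the threshold were to be named, or else the 2 of smallest p in each comparison, and the 5 probe sets most like each Slc6a14 probe set. Marker sums of Kupffer cells (8 measured), stellate cells (8), lymphocytes (7) and exocrine pancreas (6) overlapped between all groups. The number of value columns with no sample was 0. Alternatives were quantile normalization, equal array medians, a floor at 6, a filter on dim probe sets, a variance trend with robust fitting, only the groups compared, the replicate number as a block, each array left out and gene means over probe sets. The number of arrays limits the precision.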

Additional observations from a re-analysis of the deposited data

How the results depend on the processing

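The test of the transporter probe sets called 0 in each comparison under all 16 alternative fits, which tested all 18 except that the filter on dim probe sets left 16, without 2 of Slc7a1, and the smallest adjusted p in any of them was 0.895. Of 885 differences recomputed, 833 kept their direction, 52 took the other one and 0 passed the threshold. Many of the 833 could not change direction, so their number does not measure stability. The variance trend, the fit of only the groups compared, the replicate block and the filter leave each difference as it is. Leaving out an array of the group not compared does so too. For Slc6a14, a floor at 6 set the difference of 1420504_at to 0 in BI against untreated and in BI against insulin livers, since no array reached that signal. The count of all probe sets called in BI against untreated livers, 5, became 0 with the floor at 6, 0 in the fit of only the groups compared, 0 with the replicate block and 1 without dim probe sets. It was 0 to 2 with single arrays left out, 2 without insulin replicate 2 and 0 without any other array. In BI against insulin livers the count of 0 became 1 without dim probe sets and lay between 0 and 1 with single arrays left out, with 1 called without insulin replicate 1 and 1 without insulin replicate 2. The causes were not tested. Same-numbered arrays did not vary together over all probe sets (r of -0.034 to 0.036 over 9 pairs). No pairing by number was seen, but many of these probe sets are dim, so the check cannot exclude it. The block changed no call of a transporter. On 1420503_at the difference of insulin from untreated livers was -1.11, and -0.14 without insulin replicate 3.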
